A study of Mus musculus with 12 samples.

Results

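The 7 genes of the platelet-derived growth factor (PDGF) family described here are the 4 ligand genes *Pdgfa*, *Pdgfb*, *Pdgfc* and *Pdgfd*, the 2 receptor genes *Pdgfra* and *Pdgfrb*, and *Pdgfrl*, whose product is named for its similarity to the receptors. They were chosen by name, as the rows whose Ensembl identifiers map to these symbols, and make up 7 of the 35727 genes counted. All 7 passed the filter on low counts that left 15506 genes for testing. The libraries hold RNA from whole cultures of mouse cardiac fibroblasts with and without delivery of *Sox17* and *Erg*, taken at Day 3, Day 7 and 4 weeks, and the comparison asks which transcripts differ between them at each time. The *Sox17*-*Erg* samples received retroviruses for both transcription factors and are labelled as induced endothelial cells (iECs), and the control samples, whose libraries carry the name of the pMX retroviral backbone, are labelled as fibroblasts. Whether the control cells received an empty virus is not stated in the sources used here. In the isolation that the study describes, neonatal hearts were pooled, PECAM1-positive cells were depleted and THY1-positive cells were then selected. The selected cells were first put into fibroblast medium, and both groups were grown in the endothelial medium EGM2. No sort before RNA extraction is described for these libraries, so each is taken here as an average over infected and uninfected cells of any type that the culture held. The 6 groups held 2 libraries apiece, which makes 12, and the labels do not say whether these came from separate isolations, so p-values measure the spread between these libraries, which may be technical.

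PDGF ligands are secreted dimers that bind receptor tyrosine kinases on neighbouring cells. The PDGF-A and PDGF-C chains act mainly through the alpha receptor, which marks fibroblasts and their progenitors, while PDGF-B binds both receptors and PDGF-D binds mainly the beta receptor of pericytes, smooth muscle cells and fibroblasts. In growing vessels endothelial cells are a main source of PDGF-B, which recruits mural cells that carry the beta receptor.

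Library totals ran from 19011635 to 41240449 counts. *Sox17* had between 0 and 9 counts in the control libraries and between 10019 and 36238 in the *Sox17*-*Erg* libraries, and *Erg* had between 2 and 49 against between 389 and 1842, which matches the labels of all 12. The summed level of 12 endothelial markers was 21.2 to 63.7 counts per 1000000 (CPM, scaled by edgeR's TMM factors) in the control libraries and 315 to 775 CPM in the *Sox17*-*Erg* libraries. The libraries labelled iEC also carried fibroblast transcripts. The summed level of 10 fibroblast markers overlapped at Day 3, with 32575 to 39598 CPM in control and 26394 to 41764 CPM in *Sox17*-*Erg* libraries. At Day 7 it was lower in control, at 23877 to 31407 CPM, than with *Sox17*-*Erg*, at 32143 to 34933 CPM, and at 4 weeks it was higher in control, at 15109 to 18662 CPM against 12570 to 13171 CPM. Such a sum follows the genes with the highest levels and can hide opposite changes. At 4 weeks mean *Dcn* was 2603 CPM in control and 263 CPM with *Sox17*-*Erg*, and mean *Postn* was 53.9 and 1444 CPM.

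The data showed 2 ligands that rose with *Sox17*-*Erg* at every time point, 1 receptor that fell at Day 7 and 4 weeks, and 1 receptor with no detected change. *Pdgfb* rose 33.7-fold at Day 3, a value that rests on replicates apart by 2.54-fold, 207-fold at Day 7 and 554-fold at 4 weeks. *Pdgfd* rose between 6.31-fold and 6.82-fold. *Pdgfra* was 3.76-fold lower at Day 7 and 4.91-fold lower at 4 weeks, and *Pdgfrb* stayed between 362 and 741 CPM in all 12 libraries. At an adjusted p under 0.05 by edgeR, 2 of the 7 genes were called at Day 3, both higher, when 12.3% of all tested genes were called, 7.19% higher and 5.13% lower. At Day 7, 4 of the 7 were called, 3 higher and 1 lower, against 17.4% of all genes (9.48% higher and 7.93% lower), and at 4 weeks 6 of the 7 were called, 5 higher and 1 lower, against 22.9% (11.9% higher and 11% lower). With the replicate number as a block within each time point, *Pdgfra* was called at Day 3 as well, and 3, 4 and 6 of the 7 genes were called against 23.2%, 27.1% and 31% of all genes. In bulk RNA a lower level can come from fewer cells of a type or from less RNA per cell, which cannot be told apart here.

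**Figure D1:**
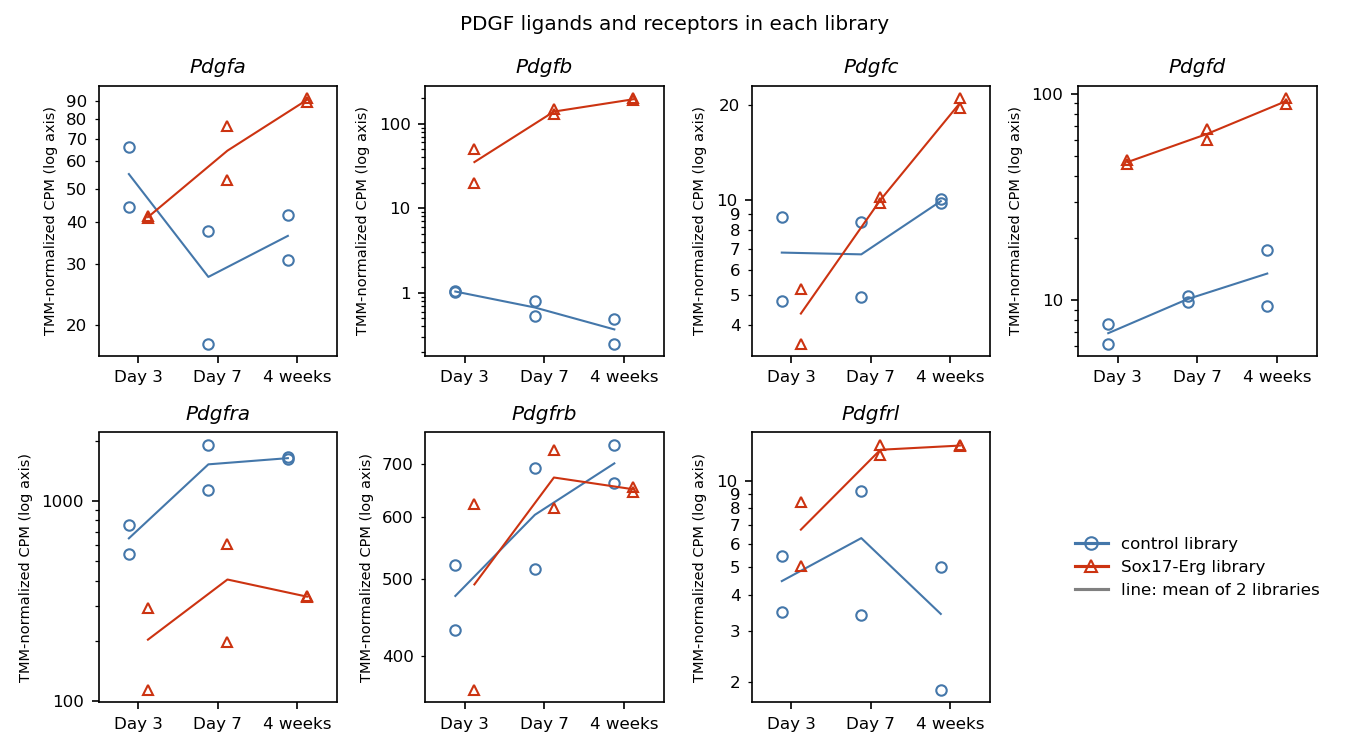
TMM-normalized CPM (log axis) of each of the 7 genes in every library by time point, with circles for control, triangles for *Sox17*-*Erg* libraries and lines through the means of the 2 libraries. The 6 *Sox17*-*Erg* libraries lie between 19.9 and 200 CPM for *Pdgfb* and the 6 control libraries between 0.251 and 1.06 CPM, while those of *Pdgfrb* overlap at Day 3 and Day 7.

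*Pdgfb* (ENSMUSG00000000489, chromosome 15, 79995874 to 80014977, minus strand, GRCm38) encodes the B chain. Its level in the control libraries was 1.06 and 1.02 CPM at Day 3, 0.538 and 0.804 CPM at Day 7, and 0.251 and 0.488 CPM at 4 weeks, which are 10 to 29 counts per library. In the *Sox17*-*Erg* libraries it was 50.5 and 19.9 CPM at Day 3, 149 and 129 CPM at Day 7, and 200.1 and 189.6 CPM at 4 weeks, or 462 to 5654 counts. Every *Sox17*-*Erg* library was above every control library, including the lowest one, replicate 2 at Day 3. The log2 fold change by edgeR was 5.08 ± 0.46 (SE) at Day 3 (adjusted p = 0.000568), 7.69 ± 0.50 at Day 7 (adjusted p = 6.72e-05) and 9.11 ± 0.54 at 4 weeks (adjusted p = 1.71e-05), with a 95% interval at 4 weeks of 7.90 to 10.3. Without replicate 1 of the Day 3 *Sox17*-*Erg* samples the Day 3 value was 4.22, and without replicate 2 it was 5.60, both still called. Since the control libraries held few counts, the size of the later fold changes rests on 10 to 20 counts in each control library. No 31-base word of its transcripts occurs in another annotated gene.

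For *Pdgfb* a change in the difference itself was called only between Day 3 and 4 weeks. It was not called between Day 3 and Day 7 or between Day 7 and 4 weeks (adjusted p = 0.231 and 0.836, edgeR interaction). The effect of *Sox17*-*Erg* on *Pdgfb* was larger at 4 weeks than at Day 3 by 4.04 ± 0.71 on the log2 scale (adjusted p = 0.0198, edgeR interaction), and *Pdgfb* was the 1 gene of the 7 called in this comparison, in which 3.21% of all genes were called. Within the *Sox17*-*Erg* samples it rose by 1.99 ± 0.36 from Day 3 to Day 7 (adjusted p = 0.0268) and by 2.47 ± 0.36 from Day 3 to 4 weeks (adjusted p = 0.00193). Within the control samples the change from Day 3 to 4 weeks was -1.57 ± 0.63 (adjusted p = 0.0954). The call on the difference was lost without either control library of Day 3, without replicate 1 of the 4-week control or without replicate 1 of the 4-week *Sox17*-*Erg* samples, where in these 4 fits the difference was 3.55 to 4.13 and the adjusted p 0.0625 to 0.0953. Without replicate 1 of the Day 3 *Sox17*-*Erg* samples the difference was 4.90 and the rises to Day 7 and 4 weeks were 2.85 and 3.35, all called. Without replicate 2 of those samples they were 3.52, 1.47 and 1.95, of which the rise to Day 7 was not called. The Day 3 to Day 7 call was lost without either Day 3 control library, without replicate 2 of the Day 3 *Sox17*-*Erg* samples or without replicate 2 of the Day 7 *Sox17*-*Erg* samples (adjusted p 0.0501 to 0.0893).

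*Pdgfd* (ENSMUSG00000032006, chromosome 9, 6168584 to 6378850, plus strand) encodes the D chain, which is secreted in latent form and needs proteolytic activation. Its level was 7.68 and 6.15 CPM in the control libraries at Day 3, 9.75 and 10.5 CPM at Day 7, and 17.5 and 9.39 CPM at 4 weeks. The *Sox17*-*Erg* libraries held 47.6 and 45.8 CPM at Day 3, 67.9 and 59.9 CPM at Day 7, and 95.3 and 89.5 CPM at 4 weeks. The lowest *Sox17*-*Erg* library lay above the highest control library. The effect on the log2 scale was 2.75 ± 0.26 at Day 3 (adjusted p = 0.000622), 2.66 ± 0.25 at Day 7 (adjusted p = 0.000294) and 2.77 ± 0.25 at 4 weeks (adjusted p = 0.000119). Unlike that of *Pdgfb*, the fitted effect moved little between time points, by 0.02 from Day 3 to 4 weeks (95% interval -0.77 to 0.81), and the level rose by 0.97 ± 0.25 in the control samples (adjusted p = 0.0211) and by 0.98 ± 0.24 in the *Sox17*-*Erg* samples (adjusted p = 0.0139) over these weeks. Without either Day 3 control library or replicate 1 of the 4-week control, the rise in the control samples was not called (adjusted p 0.0616 to 0.129), and without either Day 3 *Sox17*-*Erg* library or replicate 1 of the 4-week *Sox17*-*Erg* samples the other rise was not called (adjusted p 0.0583 to 0.0704).

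Because both delivered factors bind DNA, the sequence upstream of the RefSeq transcript starts (GRCm38.p6) was searched on both strands for a core of the ETS family, to which ERG belongs (GGAAG, or CTTCC on the other strand), and a core of the SOX family (ACAAT, or ATTGT). The motifs do not overlap. Of 32851 windows of 250 bases, each upstream of a RefSeq transcript start, 64.1% held the ETS core and 27.7% held the SOX core. Windows were used for 4 of the 7 genes, *Pdgfa*, *Pdgfc*, *Pdgfd* and *Pdgfra*. The window of *Pdgfd* held 2 ETS cores and no SOX core, that of *Pdgfc* held 2 ETS cores and no SOX core, and that of *Pdgfra* held none of either. *Pdgfa* had 2 windows with 2 ETS cores each, and 1 of them held a SOX core. The *Pdgfra* window and both *Pdgfa* windows lie downstream of the outermost RefSeq start of their gene. Of the bases of the 2 *Pdgfa* windows, 86 and 93 fall in annotated exons. The 2 sequences, 5′ to 3′ on the plus strand, are the part of the *Pdgfd* window that lies before every RefSeq start of the gene (chr9:6168236-6168362) and the *Pdgfc* window (chr3:81036166-81036415), as an example of a ligand that rose at all 3 time points and of one that was called at 4 weeks. Capitals mark ETS cores, 1 in the *Pdgfd* stretch and 2 in the *Pdgfc* window. A match describes the letters and is no binding site.
Pdgfd: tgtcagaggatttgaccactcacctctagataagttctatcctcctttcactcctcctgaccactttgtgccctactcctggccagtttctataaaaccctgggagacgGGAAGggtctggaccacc
Pdgfc: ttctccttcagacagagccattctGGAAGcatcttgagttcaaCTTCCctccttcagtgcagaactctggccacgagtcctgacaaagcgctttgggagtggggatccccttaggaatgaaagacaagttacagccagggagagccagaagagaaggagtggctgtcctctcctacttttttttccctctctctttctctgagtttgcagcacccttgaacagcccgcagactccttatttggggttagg

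*Pdgfa* (ENSMUSG00000025856, chromosome 5, 138976014 to 138997370, minus strand) encodes the A chain, the main ligand of the alpha receptor in fibroblast progenitors. The control libraries held 66.1 and 44.1 CPM at Day 3, 37.6 and 17.6 CPM at Day 7, and 30.8 and 41.9 CPM at 4 weeks. With *Sox17*-*Erg* the libraries held 41.6 and 40.9 CPM at Day 3, 76.1 and 52.9 CPM at Day 7, and 91.8 and 89.8 CPM at 4 weeks. Expression of *Pdgfa* with *Sox17*-*Erg* was below the control at Day 3 and above it at Day 7 and 4 weeks, with no overlap at any time point. The log2 fold change was -0.42 ± 0.34 at Day 3 (adjusted p = 0.443), 1.23 ± 0.34 at Day 7 (adjusted p = 0.0373) and 1.32 ± 0.34 at 4 weeks (adjusted p = 0.0217). The difference in effect between 4 weeks and Day 3 was 1.74 ± 0.48 (adjusted p = 0.0948), which was called without either Day 7 control library (adjusted p 0.0320 and 0.0354) and with the block within time points (adjusted p = 0.0176, 6.89% of all genes called).

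Within the *Sox17*-*Erg* samples *Pdgfa* rose by 1.14 ± 0.34 from Day 3 to 4 weeks (adjusted p = 0.0321), a call that was lost without any 1 of the 4 libraries compared (adjusted p 0.0927 to 0.123). The Day 7 call of *Pdgfa* was lost when any 1 of 7 libraries was left out. These were replicate 2 of the Day 7 control and of the 4-week control, and replicate 1 of the Day 7 *Sox17*-*Erg* samples. The others were both *Sox17*-*Erg* libraries of Day 3 and of 4 weeks. The Day 7 log2 fold change of *Pdgfa* was 1.85 without replicate 1 and 0.78 without replicate 2 of the Day 7 control. Its 4-week call was lost without replicate 1 of the 4-week control or either 4-week *Sox17*-*Erg* library (adjusted p 0.0742 to 0.142). Of the 31-base words of its transcripts, 23.3% also occur in 3 other annotated genes, among them 6330403L08Rik on the opposite strand, and how reads of those words were assigned was not tested.

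*Pdgfc* (ENSMUSG00000028019, chromosome 3, 81036416 to 81214040, plus strand) encodes the C chain, a second latent ligand of the alpha receptor. It was at 8.84 and 4.76 CPM in the control libraries at Day 3, 8.53 and 4.90 CPM at Day 7, and 10.1 and 9.76 CPM at 4 weeks. Under *Sox17*-*Erg* it was at 5.21 and 3.49 CPM at Day 3, 9.76 and 10.2 CPM at Day 7, and 19.6 and 21.1 CPM at 4 weeks. The groups overlapped at Day 3 and were separate later, with the *Sox17*-*Erg* libraries higher. Its log2 fold change was -0.65 ± 0.34 at Day 3 (adjusted p = 0.228), 0.57 ± 0.33 at Day 7 (adjusted p = 0.265) and 1.04 ± 0.32 at 4 weeks (adjusted p = 0.0471).

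From Day 3 to 4 weeks *Pdgfc* rose by 2.23 ± 0.34 within the *Sox17*-*Erg* samples (adjusted p = 0.00234) and changed by 0.54 ± 0.33 within the control samples (adjusted p = 0.255). The difference between these, 1.69 ± 0.47, had an adjusted p of 0.0970, and of 0.0305 with the block within time points. The 4-week call of *Pdgfc* against control was lost without any of the 4 libraries of 4 weeks or any of the 4 *Sox17*-*Erg* libraries of Day 3 and Day 7 (adjusted p 0.0517 to 0.164). Exons of Gm16000 overlap the gene on the opposite strand, and 2.54% of its 31-base words occur elsewhere.

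*Pdgfra* (ENSMUSG00000029231, chromosome 5, 75152292 to 75198215, plus strand) encodes the alpha receptor, a marker of cardiac fibroblasts. The control libraries held 544 and 756 CPM at Day 3, 1138 and 1905 CPM at Day 7, and 1657 and 1609 CPM at 4 weeks. Both *Sox17*-*Erg* replicates held less, with 114 and 292 CPM at Day 3, 198 and 612 CPM at Day 7, and 330.1 and 335 CPM at 4 weeks. Within each time point both *Sox17*-*Erg* libraries lay below both control libraries, although replicate 2 of Day 7, at 612 CPM, was above the lower control library of Day 3. By edgeR the log2 fold change was -1.68 ± 0.55 at Day 3 (adjusted p = 0.0779), -1.91 ± 0.56 at Day 7 (adjusted p = 0.0439) and -2.30 ± 0.56 at 4 weeks (adjusted p = 0.0179).

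The wide errors of *Pdgfra* go with the spread between replicates, which differed 2.57-fold in the Day 3 and 3.09-fold in the Day 7 *Sox17*-*Erg* samples. The fold change at Day 3 was -1.19 without replicate 1 and -2.52 without replicate 2 of the *Sox17*-*Erg* samples, and at Day 7 it was -1.31 without replicate 1 and -2.98 without replicate 2. The Day 7 call was lost without any 1 of 9 libraries (adjusted p 0.0533 to 0.223), all but both Day 3 *Sox17*-*Erg* libraries and replicate 2 of the Day 7 *Sox17*-*Erg* samples. The 4-week call was lost without any of the 4 libraries of 4 weeks (adjusted p 0.0507 to 0.108), where the fold change stayed between -2.33 and -2.27. The Day 3 difference was called with the block within time points (-1.81, adjusted p = 0.00589), without either Day 7 *Sox17*-*Erg* library (adjusted p 0.0337 and 0.0368) and with DESeq2 (adjusted p = 0.0330). The rise of *Pdgfra* from Day 3 to 4 weeks in the control samples, 1.33 ± 0.55, did not pass (adjusted p = 0.104) and did so without either Day 7 *Sox17*-*Erg* library (adjusted p 0.0456 and 0.0486). Of its 31-base words 5.57% occur in other genes, and exons of Mir7025, Gm42802 and Gm42803 overlap it.

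*Pdgfrb* (ENSMUSG00000024620, chromosome 18) encodes the beta receptor, which is carried by pericytes, smooth muscle cells and cultured fibroblasts. The control libraries held 431 and 522 CPM at Day 3, 515 and 692 CPM at Day 7, and 662 and 741 CPM at 4 weeks. The *Sox17*-*Erg* libraries held 362 and 624 CPM at Day 3, 616 and 730.1 CPM at Day 7, and 645 and 656 CPM at 4 weeks. The groups overlapped at Day 3 and Day 7, and at 4 weeks both *Sox17*-*Erg* libraries lay just under the lower control library. The log2 fold change was 0.05 at Day 3 (95% interval -0.52 to 0.62, adjusted p = 0.921), 0.16 at Day 7 (-0.41 to 0.73, adjusted p = 0.709) and -0.11 at 4 weeks (-0.68 to 0.46, adjusted p = 0.801). These intervals reach no lower than -0.68 and no higher than 0.73 on the log2 scale. They do not reach the fitted fall of *Pdgfra*, although at Day 3 the interval of *Pdgfra*, -2.92 to -0.43, overlaps that of *Pdgfrb*.

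*Pdgfrl* (ENSMUSG00000031595, chromosome 8, 40926212 to 40990785, plus strand) encodes a PDGF receptor-like protein without a kinase domain. The control libraries held 3.49 and 5.46 CPM at Day 3, 3.42 and 9.20 CPM at Day 7, and 5.01 and 1.87 CPM at 4 weeks. The *Sox17*-*Erg* libraries held 5.06 and 8.45 CPM at Day 3, 12.3 and 13.3 CPM at Day 7, and 13.3 and 13.1 CPM at 4 weeks. The groups overlapped at Day 3 and the *Sox17*-*Erg* libraries were the higher ones at Day 7 and 4 weeks. The log2 fold change was 0.60 ± 0.53 (adjusted p = 0.489), 1.02 ± 0.52 (adjusted p = 0.212) and 1.92 ± 0.53 (adjusted p = 0.0300) at the 3 time points, and the 4-week call was lost without replicate 2 of the 4-week control or either 4-week *Sox17*-*Erg* library (adjusted p 0.0848 to 0.128). Without replicate 1 of the 4-week control the 4-week value was 2.82, and without replicate 2 it was 1.41. The Day 7 value was 0.45 without replicate 1 and 1.90 without replicate 2 of the Day 7 control, neither of them called. Of its 31-base words 2.01% occur in other genes.

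**Figure D2:**
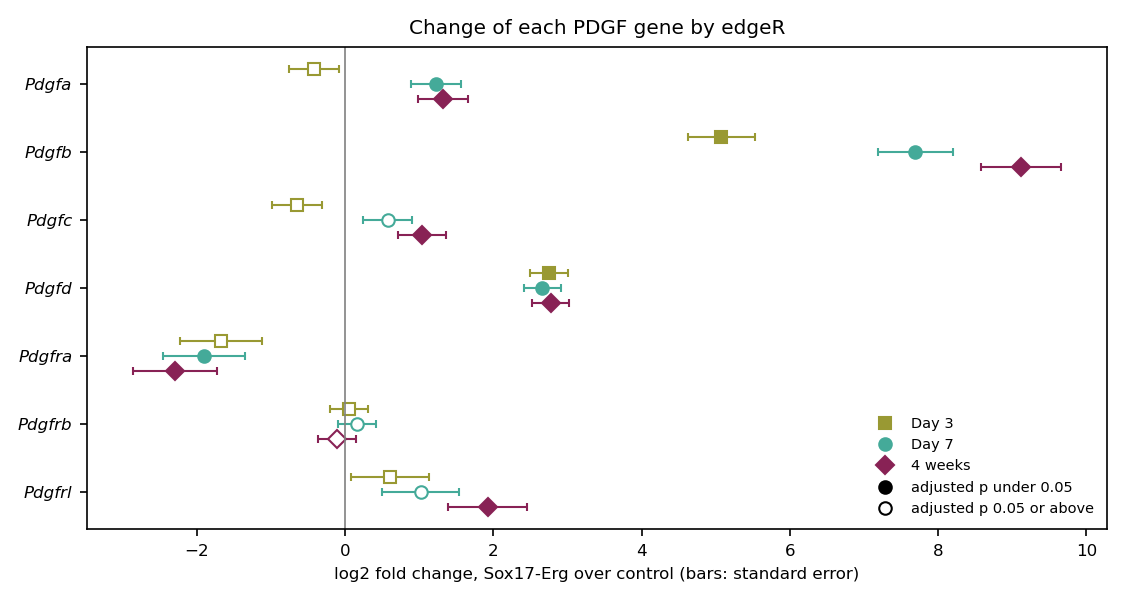
Log2 fold change of *Sox17*-*Erg* over control for each gene at Day 3 (squares), Day 7 (circles) and 4 weeks (diamonds), with bars for the standard error and filled symbols for an adjusted p under 0.05 by edgeR. *Pdgfb* moves from 5.08 to 9.11 over time, *Pdgfd* stays between 2.66 and 2.77, and *Pdgfrb* lies between -0.11 and 0.16.

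Taking the 3 time points together, the labels were permuted within each time point, which allows 216 arrangements and a smallest two-sided p of 0.0093. Same-numbered libraries were not treated as pairs here. Within 1 time point, 2 libraries compared with 2 allow no exact p under 0.33. *Pdgfb* (mean log2 difference 7.08), *Pdgfd* (2.75) and *Pdgfra* (-2.06) each reached the smallest p these permutations can give, 0.0093, with an adjusted p of 0.0328 over all tested genes. These are the 3 genes of the 7 in which the groups were separate in 1 direction at all 3 time points, a pattern held by 28.3% of all tested genes. *Pdgfrl* had an exact permutation p of 0.019 (adjusted p = 0.0514), *Pdgfa* 0.083 (adjusted p = 0.153), *Pdgfc* 0.31 (adjusted p = 0.43) and *Pdgfrb* 0.87 (adjusted p = 0.915). At single time points the groups were separate for 4 of the 7 genes at Day 3 (64% of all tested genes), for 6 at Day 7 (57.9%) and for 7 at 4 weeks (62.7%), so the count at Day 3 was near the background.

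Few of these genes were called between time points within the control cultures. With 7 genes, the counts do not stand apart from the shares called over all genes. From Day 3 to Day 7 edgeR called 0 of the 7 in the control samples (8.76% of all genes), with *Pdgfa* alone at an unadjusted p under 0.05 and 1 gene called by DESeq2. Without replicate 1 of the Day 7 control the *Pdgfa* change of -0.999 became -1.62 and was called (adjusted p = 0.0276), and without replicate 2 of the 4-week control the *Pdgfd* change was called (adjusted p = 0.0403). From Day 7 to 4 weeks edgeR called 0 of the 7 in the control samples (0.393% of all genes), none had an unadjusted p under 0.05 and DESeq2 called 0. From Day 3 to 4 weeks 1 of the 7 was called, *Pdgfd* (26.5% of all genes), and without either Day 3 *Sox17*-*Erg* library the fall of *Pdgfb* was called as well (adjusted p 0.0106 and 0.0108).

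In the *Sox17*-*Erg* cultures all 4 ligand genes rose from Day 3 to 4 weeks and no receptor gene was called, 4 of the 7 in all against 30.7% of all genes, with 15.1% of all genes higher. The receptor *Pdgfrb*, at 0.40 ± 0.25, was called without replicate 2 of the Day 3 *Sox17*-*Erg* samples (0.85, adjusted p = 0.0407). From Day 3 to Day 7 *Pdgfb* was the 1 gene called (3.42% of all genes). With a replicate block over all libraries *Pdgfc* was called as well, with a log2 change of 1.23 (adjusted p = 0.0485, 5.05% of all genes). From Day 7 to 4 weeks edgeR called 0 of the 7 (1.82% of all genes), with *Pdgfc* and *Pdgfd* at an unadjusted p under 0.05 and 1 gene called by DESeq2. The difference in effect between Day 7 and Day 3 was called by edgeR for 0 of the 7 (0.0838% of all genes), where *Pdgfa*, *Pdgfb* and *Pdgfc* had an unadjusted p under 0.05 and DESeq2 called 2. Between 4 weeks and Day 7 it was called for 0 of the 7 (0.0387% of all genes), none with an unadjusted p under 0.05, and DESeq2 called 0.

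Levels of different genes were compared as TMM-normalized CPM per kilobase of exons. In the control samples at 4 weeks the receptors stood far above the ligands, with *Pdgfra* at 163 and *Pdgfrb* at 128 CPM per kb against 11.7 for *Pdgfa*, 4.27 for *Pdgfd*, 1.95 for *Pdgfc* and 0.0887 for *Pdgfb*, the lowest level of the 7. In the *Sox17*-*Erg* samples at 4 weeks the order was *Pdgfrb* at 119, *Pdgfb* at 46.8, *Pdgfra* at 33.2, *Pdgfd* at 29.3, *Pdgfa* at 29.1, *Pdgfrl* at 4.23 and *Pdgfc* at 4.00 CPM per kb. *Pdgfd* and *Pdgfa* were neighbours whose libraries overlapped in that order. With the longest transcript as the length *Pdgfa*, at 44.1, stood above *Pdgfd*, at 29.5, and below *Pdgfra*, at 48.7. *Pdgfb* thus went from last place in the control samples to the highest level among the ligands in the *Sox17*-*Erg* samples at Day 7 (33.5 CPM per kb) and 4 weeks. At Day 3, with 8.46 CPM per kb, it was still below *Pdgfd* at 14.8 and *Pdgfa* at 13.2, though its libraries, at 12.1 and 4.78 CPM per kb, differed 2.54-fold.

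**Figure D3:**
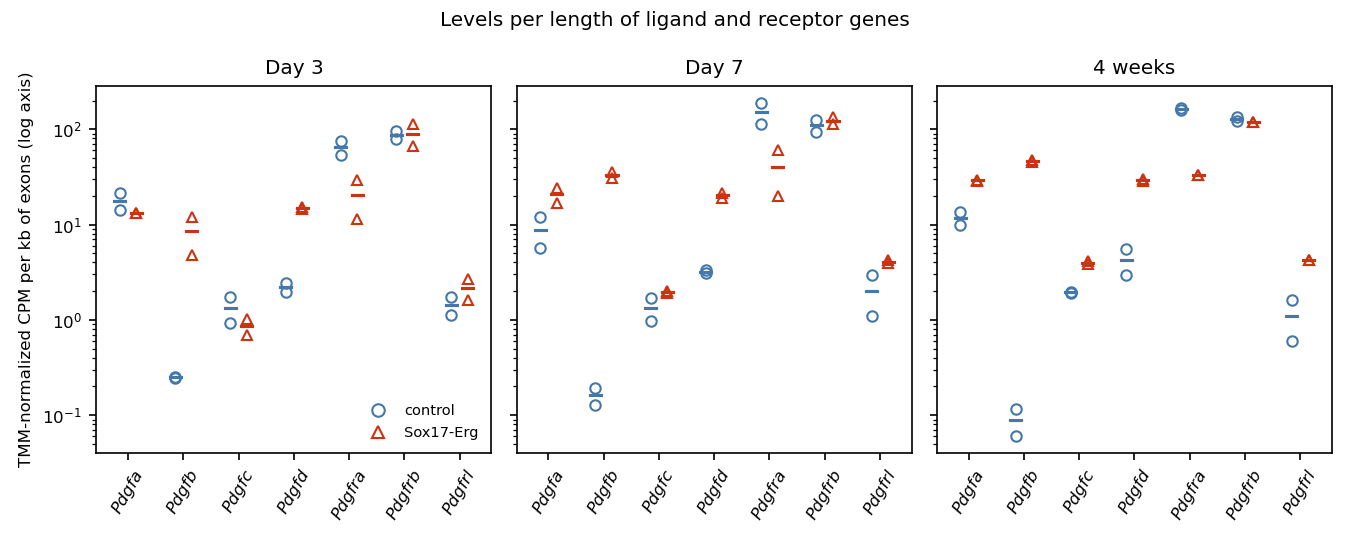
TMM-normalized CPM per kb of exons (log axis) of the 7 genes at each time point, with circles for control and triangles for *Sox17*-*Erg* libraries and bars for the mean of 2. At 4 weeks *Pdgfb* lies at 0.0887 CPM per kb in control and 46.8 in *Sox17*-*Erg* samples, between the 2 receptors at 119 and 33.2.

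The balance of the receptors was compared within each library as the ratio of *Pdgfrb* to *Pdgfra* CPM per kb. At Day 3 the ratio was 1.45 and 1.26 in control and 5.83 and 3.90 in *Sox17*-*Erg* libraries. At Day 7 the control libraries stood at 0.828 and 0.665 and the *Sox17*-*Erg* libraries at 5.69 and 2.18, and at 4 weeks the values were 0.731 and 0.842 against 3.58 and 3.58. All 6 *Sox17*-*Erg* libraries therefore had more beta than alpha receptor transcript per length and lay above all 6 control libraries. With the longest transcript as the length, the *Sox17*-*Erg* libraries lay between 1.503 and 4.01 and the control libraries between 0.458 and 0.999, so the side of 1 on which the Day 3 control libraries fell depended on the length used.

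The genes whose log2 CPM followed each member most closely over the 12 libraries were listed as a description, since the points share treatment and time. *Pdgfb* was followed most closely by *Fam213a* (r = 0.995) and by *Prdm1* (r = 0.99), *Pdgfd* by *Chic1* (r = 0.99) and by the pericyte gene *Rgs5* (r = 0.98), and *Pdgfra* by *Baiap2* (r = 0.99) and *Ebf3* (r = 0.99). The closest genes were *Trabd2b* (r = 0.94) and *Dlx2* (r = 0.93) for *Pdgfa*, *Fry* (r = 0.97) and *Kalrn* (r = 0.94) for *Pdgfc*, *BC017158* (r = 0.92) and *Gm14444* (r = 0.91) for *Pdgfrb*, and *Igfbp5* (r = 0.93) and *Gpsm1* (r = 0.93) for *Pdgfrl*. *Kalrn* is one of the genes that share 31-base words with *Pdgfa*. Among the members themselves *Pdgfb* and *Pdgfd* had the highest coefficient (r = 0.94) and *Pdgfb* and *Pdgfra* the lowest (r = -0.80).

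Genes that activate or bind PDGF chains were called in both directions. Of 8 such genes, 1 was higher and 1 lower at Day 3, beside 7.19% and 5.13% of all tested genes, and 2 went up and 2 down at both later time points, beside 9.48% higher and 7.93% lower at Day 7 and 11.9% higher and 11% lower later on. The other 6 at Day 3 and 4 at each later time point did not pass, with list medians of -0.09, -0.05 and -0.11 on the log2 scale beside 0.010, 0.0058 and -0.014 over all tested genes. *Plau*, which encodes urokinase, an activator of latent PDGF-D, fell at all 3 time points by 1.26 ± 0.27, 1.40 ± 0.27 and 1.78 ± 0.27. *Plat*, encoding the tissue plasminogen activator that activates latent PDGF-C, fell by 0.81 ± 0.17 at Day 7 and 1.26 ± 0.17 at 4 weeks. *Furin*, whose protease processes the A and B chains, rose by 0.74 ± 0.13 at Day 7 and 0.96 ± 0.13 at 4 weeks. The co-receptor gene *Nrp1* rose by 2.11 ± 0.24 at Day 3 and 1.35 ± 0.23 at Day 7 and stood at 0.25 ± 0.23 at 4 weeks (adjusted p = 0.474). With each of the 12 libraries left out in turn, the calls of *Nrp1* and *Furin* and the 4-week calls of *Plau* and *Plat* held. With the libraries of Day 7 alone the Day 7 calls of *Nrp1* (adjusted p = 0.0543), *Furin* (adjusted p = 0.0612) and *Plat* (adjusted p = 0.0842) were lost. Without replicate 1 of the Day 7 *Sox17*-*Erg* samples the Day 7 falls of *Plau* (adjusted p = 0.0624) and *Plat* (adjusted p = 0.0758) were not called, and the Day 3 fall of *Plau* was not called without replicate 1 of the Day 3 control or either Day 3 *Sox17*-*Erg* library (adjusted p up to 0.125).

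Of 20 adaptors and effectors, 1 was higher and 2 lower at Day 3, 3 higher and 1 lower at Day 7, and 4 higher and 1 lower at 4 weeks, with medians of -0.08, -0.02 and -0.07. These 3, 4 and 5 genes of 20 are shares near the background of 12.3%, 17.4% and 22.9%. With the block within time points 3 were higher and 5 lower at Day 3, when 23.2% of all genes were called. The Src-family kinase genes *Fyn* and *Src* rose by 0.68 ± 0.15 and 0.48 ± 0.13 at Day 7 and by 1.18 ± 0.15 and 0.82 ± 0.13 at 4 weeks. *Sos1*, an exchange factor for Ras, rose by 0.40 to 0.50 at the 3 time points, and *Pik3r1*, a regulatory subunit of PI3 kinase, fell by 0.38 ± 0.10 at Day 3 and 0.45 ± 0.10 at 4 weeks. The 4-week calls of *Fyn* and *Src* held without any 1 library, while *Src* at Day 7 was lost without any 1 of 10 libraries, *Sos1* at Day 3 without any 1 of 11 and at Day 7 without any 1 of 8, and *Pik3r1* at Day 3 without any 1 of 6. The calls of *Fyn* at Day 7 and *Sos1* at 4 weeks were lost without any 1 of 2 libraries and that of *Pik3r1* at 4 weeks without any 1 of 3. With the libraries of the time point alone *Fyn*, *Src* and *Sos1* at Day 7 and *Pik3r1* at 4 weeks were not called (adjusted p 0.0594 to 0.166), nor was *Sos1* at Day 3 and Day 7 with an offset for GC content (adjusted p 0.154 and 0.0617).

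Of 15 immediate early genes, which growth factors such as PDGF and many other stimuli induce, 2, 4 and 9 were higher at the successive time points, beside 7.19%, 9.48% and 11.9% of all tested genes, so that the count at Day 3 was near the background. The list medians were 0.50, 1.19 and 1.73. At 4 weeks the summed level of the 15 genes was 447 and 870 CPM in the control libraries and 1147 and 2532 CPM in the *Sox17*-*Erg* libraries. With the block within time points 8, 12 and 13 were higher, when 23.2%, 27.1% and 31% of all genes were called in either direction. *Jun*, which encodes a subunit of AP-1, rose by 1.69 ± 0.29, 2.22 ± 0.29 and 2.79 ± 0.30. *Egr3* rose by 3.42 ± 0.65 at Day 7 and 4.25 ± 0.66 at 4 weeks, and *Srf*, whose factor binds serum response elements, rose by 0.49 ± 0.14 and 0.58 ± 0.14. *Ier3* rose by 1.63 ± 0.42 and 1.73 ± 0.42 at the same times. *Jun* at Day 7 and *Jun* and *Egr3* at 4 weeks stayed called whichever library was left out, and the other 6 calls named here were each lost without at least 2 single libraries, most often for *Srf* at Day 7 (7 libraries, adjusted p up to 0.182). With the libraries of Day 7 alone *Egr3*, *Ier3* and *Srf* were not called there (adjusted p 0.0501 to 0.0925), and with an offset for GC content *Srf* was called neither at Day 7 (adjusted p = 0.0789) nor at 4 weeks (adjusted p = 0.0690). Which stimulus or cells these transcripts follow was not tested. Of 6 class III receptor tyrosine kinase relatives and their ligands, 5 were tested, with 1 lower at Day 3, 1 at Day 7 (3 with the block within time points) and 3 at 4 weeks, beside 5.13%, 7.93% and 11% of all tested genes lower. *Csf1*, the ligand of the related macrophage receptor, fell by 0.98 ± 0.16, 0.85 ± 0.16 and 1.75 ± 0.17. Its Day 3 call was lost without replicate 1 of either Day 3 group and its Day 7 call without replicate 1 of the Day 7 *Sox17*-*Erg* samples (adjusted p = 0.0620) and with the libraries of Day 7 alone (adjusted p = 0.0656).

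**Figure D4:**
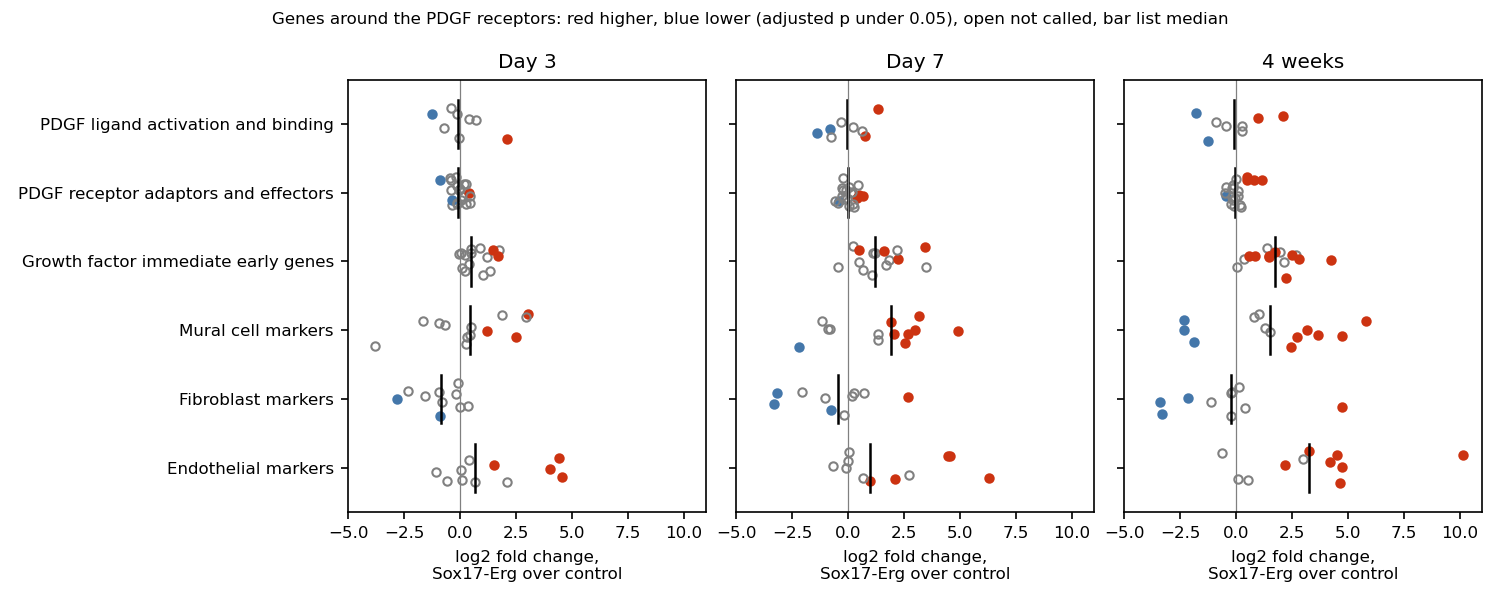
Log2 fold change of *Sox17*-*Erg* over control for the genes of 6 lists at each time point, with each point a gene, red for higher and blue for lower at an adjusted p under 0.05, open for not called, and a bar for the list median. The immediate early genes shift from a median of 0.50 to 1.73 over time, while the adaptors and effectors stay near 0.

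Some cell type markers also differed between the groups, and their part in the changes above was not tested. Of 13 mural cell markers, the cells on which the beta receptor is best known, 3 were higher at Day 3, 7 higher and 1 lower at Day 7, and 6 higher and 3 lower at 4 weeks. Over all tested genes 7.19%, 9.48% and 11.9% were higher and 5.13%, 7.93% and 11% lower. *Mcam* rose by 2.51 ± 0.49, 4.92 ± 0.55 and 5.80 ± 0.58, *Rgs5* by 3.02 ± 0.34, 2.99 ± 0.32 and 2.72 ± 0.31, and *Notch3* by 1.19 ± 0.26, 2.69 ± 0.27 and 3.17 ± 0.27, while *Pdgfrb* itself was not called. The contractile gene *Cnn1* rose by 3.19 ± 0.95 at Day 7 and 4.72 ± 0.96 at 4 weeks. All 3 calls of *Rgs5* and the Day 7 and 4-week calls of *Mcam* and *Notch3* held without any 1 library. At Day 3 *Mcam* was lost without any 1 of 3 libraries (adjusted p up to 0.123) and *Notch3* without any 1 of 2 (adjusted p up to 0.125) and with the libraries of Day 3 alone (adjusted p = 0.0632). *Cnn1* at Day 7 was lost without any 1 of 9 libraries (adjusted p up to 0.453) or with the libraries of Day 7 alone (adjusted p = 0.131) and at 4 weeks without replicate 1 of the control (adjusted p = 0.0610). The mural markers that fell are named after their values were seen. They were *Des*, a muscle intermediate filament gene, with -2.20 ± 0.48 at Day 7 and -1.90 ± 0.47 at 4 weeks, and at 4 weeks the pericyte channel genes *Abcc9* (-2.33 ± 0.36) and *Kcnj8* (-2.34 ± 0.70). *Abcc9* held without any 1 library, *Des* was lost without any 1 of 3 at Day 7 and of 2 at 4 weeks, and *Kcnj8* without any 1 of 11 and with the block within time points (adjusted p = 0.0680). With the libraries of 4 weeks alone *Des* (adjusted p = 0.0519) and *Kcnj8* (adjusted p = 0.0827) were not called there. The summed mural level was 3432 to 3801, 589 to 1405 and 1041 to 2541 CPM in the control libraries at the 3 time points and 5004 to 5192, 2394 to 5285 and 4895 to 4927 CPM in the *Sox17*-*Erg* libraries. At Day 3 with *Sox17*-*Erg*, *Mcam*, *Notch3*, *Cnn1* and *Rgs5* had mean levels of 354, 216, 9.19 and 6.33 CPM. Other genes of the list thus made up most of the sum there. The pericyte marker *Higd1b* was at 0 counts in both Day 3 *Sox17*-*Erg* libraries, and no other marker in any of these lists was at 0 in both libraries of a group.

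Some markers of endothelial cells, which make PDGF-B in vessels, rose beside *Pdgfb*. Of 12 markers 11 were tested, and 4, 5 and 7 of them were higher at the 3 time points, beside 7.19%, 9.48% and 11.9% of all tested genes, while 7, 6 and 4 did not pass, with *Cdh5* up by 4.58 ± 1.23, 6.29 ± 1.34 and 10.2 ± 1.67. *Emcn* rose by 4.00 to 4.63, *Kdr* by 3.26 to 4.45, and *Pecam1* by 2.10 ± 0.39 at Day 7 and 4.21 ± 0.42 at 4 weeks. Of the 11 calls of these 4 genes, 8 held without any 1 library, and *Cdh5* at Day 3 was lost without any 1 of 9 (adjusted p up to 0.189), as *Cdh5* at Day 7 was with the libraries of Day 7 alone (adjusted p = 0.0599). Of 10 fibroblast markers, 2 were lower at Day 3, beside 5.13% of all tested genes, and 3 were lower and 1 higher at both later time points, beside 7.93% and 11% lower. With the block within time points 6, 5 and 4 were lower and 2 were higher at Day 7, when 23.2%, 27.1% and 31% of all genes were called. *Dcn* and *Lum* fell, with log2 fold changes of -3.16 ± 0.57 and -3.33 ± 0.73 at Day 7 and -3.31 ± 0.58 and -3.39 ± 0.73 at 4 weeks, *Tcf21* fell by 2.82 ± 0.67 at Day 3 and 2.14 ± 0.65 at 4 weeks, and *Postn* rose by 2.69 ± 0.27 at Day 7 and 4.74 ± 0.30 at 4 weeks. The calls of *Dcn* and *Postn* held without any 1 library, *Lum* was lost without any 1 of 2 at Day 7 and at 4 weeks, and *Tcf21* was lost without any 1 of 3 at Day 3 and of 6 at 4 weeks (adjusted p up to 0.210).

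Some mesothelial and cardiomyocyte markers also fell beside *Pdgfra*, mainly at the later time points. Of 6 mesothelial markers 1, 4 and 6 were lower at the 3 time points (5, 6 and 6 with the block within time points), beside 5.13%, 7.93% and 11% of all tested genes lower, and 23.2%, 27.1% and 31% called in either direction with the block. Their summed level was 295 to 1449 CPM over the control libraries and 130 to 321 CPM over the *Sox17*-*Erg* libraries. *Upk3b* fell by 2.56 ± 0.59, 1.99 ± 0.56 and 2.80 ± 0.57. Of 7 cardiomyocyte markers 1, 3 and 6 were lower (4, 5 and 7 with the block) beside the same shares of all genes, with summed levels of 55.9 to 258 CPM and 21.3 to 50.8 CPM, and *Myh6* fell, with log2 fold changes of -1.76 ± 0.49 at Day 7 and -3.16 ± 0.51 at 4 weeks. The 4-week call of *Myh6* held without any 1 library, that of *Upk3b* was lost without replicate 2 of the 4-week *Sox17*-*Erg* samples (adjusted p = 0.0601), and the other calls named here were lost without 2 to 5 single libraries. *Myh6* at Day 7 was also lost with the libraries of Day 7 alone (adjusted p = 0.0646). Of 9 macrophage markers edgeR called 0 at each time point and none had an unadjusted p under 0.05, and DESeq2 called 0 as well. With the block within time points 9 of the 9 were lower at Day 7, when 27.1% of all genes were called, and 1 was higher at 4 weeks, when 31% were. Their summed level was 888 to 1289 CPM in the Day 7 control libraries and 45.6 to 442 CPM in the other 10 libraries.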

How the data were processed

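Bulk RNA was taken with TRIzol from 12 mouse cardiac fibroblast cultures, and stranded poly(A) libraries were sequenced paired-end. The authors demultiplexed with bcl2fastq 2.20.0, trimmed reads of high GC content with BBDuk and quantified transcripts with Salmon on mm10. The deposited values are estimated counts per Ensembl gene, not normalized, and they were rounded to whole numbers for testing. Library totals ran from 19011635 to 41240449 counts. All PDGF ligand and receptor genes were taken by symbol through GENCODE M21 (GRCm38), which held 35493 of the 35727 identifiers.

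Counts were scaled by TMM and fitted with edgeR 4.0.16 (quasi-likelihood test, R 4.3.3) over all 12 libraries with a mean for each of the 6 groups, which left 6 residual degrees of freedom, after filterByExpr (min.count 10, min.total.count 15). Adjusted p-values are Benjamini-Hochberg values over the 15506 genes tested, with a threshold of 0.05. The exact permutation test exchanged labels within time points on log2 CPM with a prior count of 2. Levels per kilobase used the union of exons of each gene. Shared 31-base words were counted in GENCODE transcripts, and upstream sequences came from RefSeq.

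Named are all 7 genes, the 2 genes most correlated with each, and from each gene list up to 4 genes called at 2 or more time points with the largest mean change. The list of genes that restrain the receptors is not reported here. Members and lists were chosen with earlier results of these data known. Alternatives were DESeq2 1.42.0 (Wald test), DESeq2 size factors, no filter, a filter of 1 CPM in 2 libraries, a threshold of 0.01, the libraries of 1 time point alone, a replicate block, a prior count of 0.5, the longest transcript as the length and each library left out in turn. Replicate numbers come from the sample titles. Deviations of same-numbered control and *Sox17*-*Erg* libraries from their group means correlated at 0.19 at Day 3, 0.30 at Day 7 and 0.17 at 4 weeks, so the block within time points is given where it changes a treatment call. An offset for GC content and a block with crossed numbers were added after seeing the data.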

Additional observations from a re-analysis of the deposited data

Results flagged for a closer look

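The effect of *Sox17*-*Erg* on *Pdgfb* differed between time points. It was larger at 4 weeks than at Day 3 by 4.04 on the log2 scale in edgeR's test of the difference itself (adjusted p = 0.0198), with both 4-week *Sox17*-*Erg* libraries above both of Day 3 and both 4-week control libraries below both of Day 3. The 4-week control libraries held 10 and 12 counts of *Pdgfb*, which limits the precision of this value, and the call was lost without any 1 of 4 libraries (adjusted p 0.0625 to 0.0953), namely both Day 3 control libraries and replicate 1 of either 4-week group.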

How the results depend on the processing

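*Pdgfb* and *Pdgfd* kept their direction and were called at all 3 time points under each of the 21 alternatives. The number of the 7 genes called changed as follows. With DESeq2 it went from 0 to 1 for Day 7 against Day 3 in control, from 1 to 2 for 4 weeks against Day 3 in control and for Day 7 against Day 3 in *Sox17*-*Erg* samples, from 0 to 1 for 4 weeks against Day 7 in *Sox17*-*Erg* samples, and for the difference in effect from 0 to 2 (Day 7 against Day 3) and from 1 to 3 (4 weeks against Day 3). With no filter these 6 counts were 2, 4, 3, 1, 2 and 3. At a threshold of 0.01 the count fell from 4 to 2 at Day 7, from 6 to 2 at 4 weeks, from 1 to 0 for 4 weeks against Day 3 in control, for Day 7 against Day 3 in *Sox17*-*Erg* samples and for the difference in effect between 4 weeks and Day 3, and from 4 to 2 for 4 weeks against Day 3 in *Sox17*-*Erg* samples. With the libraries of Day 7 alone, fewer samples, it fell from 4 to 2 there, without *Pdgfa* (adjusted p = 0.144) and *Pdgfra* (adjusted p = 0.124). The deviations of same-numbered libraries correlated at 0.14 to 0.30 between the groups of Day 3 and Day 7 and at -0.14 to 0.17 in pairs with a 4-week group, of which only the pair within 4 weeks was above 0, so the numbers were not taken as pairs across all time points. A replicate block over all libraries gave 2 in place of 1 for 4 weeks against Day 3 in control and for Day 7 against Day 3 in *Sox17*-*Erg* samples, and a block within time points 3 in place of 1 for the difference in effect between 4 weeks and Day 3. Besides these and *Pdgfra* at Day 3, the block within time points changed no call of the 7 genes. With numbers crossed at 4 weeks these 3 counts were 2, 2 and 3, and that of Day 7 against Day 3 in control was 1. *Pdgfra* was called at Day 3 with DESeq2 (adjusted p = 0.0330), with no filter (8.11e-05) and with a block (0.00589 to 0.0246), and *Pdgfrl* at Day 7 with no filter (0.0265) and with crossed numbers (0.0473).

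With 1 library left out, a lone sample being assumed to vary like the other groups, the count ranged from 2 to 3 at Day 3, from 2 to 4 at Day 7 and from 2 to 6 at 4 weeks. In control it ranged from 0 to 1 for Day 7 against Day 3 and from 0 to 2 for 4 weeks against Day 3, and in *Sox17*-*Erg* samples from 0 to 1 and from 2 to 4, with 0 throughout for 4 weeks against Day 7 in both groups. The difference in effect gave 0 to 2 between 4 weeks and Day 3 and 0 for the other two. The sign of *Pdgfrb*, never called, turned at Day 3 to -0.083 without replicate 1 of the control and -0.40 without replicate 2 of the *Sox17*-*Erg* samples, and at Day 7 to -0.065 and -0.0094 without the same replicates of that day, with highest values of 0.35 and 0.39 over the libraries left out. The longest transcript as the length moved 24 of 42 group levels per kilobase by more than the spread between replicates. Over all tested genes DESeq2 called 1.5 times the edgeR count or more in several comparisons, such as 737 against 61 for 4 weeks against Day 7 in control, and with the block within time points 3592 genes were called at Day 3 in place of 1910. The cause of these changes was not tested.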
